A study of Mus musculus with 37 samples.

Results

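The apolipoprotein genes Apoa1, Apoa2, Apoa4, Apoa5, Apob, Apoc1, Apoc3, Apoe, Apoh and Apom were followed in mouse liver after oral exposure to HFPO-DA, the ammonium salt of a short-chain perfluoroalkyl ether acid. The 10 genes were chosen by symbol, and every probe whose name carries one of these symbols was taken, which gave 18 of the 30146 probes on the assay and 10 of its 21450 gene symbols. All 18 passed the filter on low counts, as did 18570 probes of 13004 genes in the whole table. Liver sections came from adult Crl:CD1(ICR) mice of the parental generation of a reproductive toxicity study, labelled WT, which were gavaged every day with HFPO-DA at 5, 0.5 or 0.1 mg/kg or with deionized water alone (0 mg/kg). Male mice were about 6 weeks old at the first dose and received 84 to 85 doses, starting 70 days before mating. Female mice were about 11 weeks old, received 53 to 65 doses starting 14 days before mating, and were sampled late in lactation. Sex can therefore not be told apart from age, number of doses and lactation. There were 5, 5, 5 and 4 male mice and 5, 5, 4 and 4 female mice in rising order of dose, from 0 to 5 mg/kg, 37 in all. Fixed, paraffin-embedded sections were assayed by TempO-Seq, in which a pair of probes is ligated on its target RNA and the ligated product is counted by sequencing.

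Apolipoproteins are the protein part of the particles that carry lipid in blood, and the liver makes most of them. Apob is the scaffold of very low density and low density lipoproteins, and Apoa1 and Apoa2 are the main proteins of high density lipoproteins. Apoc3 slows and Apoa5 speeds the clearance of triglyceride by lipoprotein lipase, Apoe is the ligand by which remnant particles are taken up, and Apoc1 hinders that uptake. Apoa4 is made in intestine and, in rodents, in liver, where it rises when the liver holds more triglyceride. Apom carries sphingosine-1-phosphate on high density lipoproteins, and Apoh, also known as beta-2-glycoprotein I, binds anionic phospholipids. The nuclear receptor PPAR alpha, known to be activated by HFPO-DA, binds DNA with its partner Rxra at repeats of a hexamer separated by 1 base.

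Of the 10 genes, 6 lie in clusters. In the GENCODE annotation of GRCm38, Apoa1 (chromosome 9, 46228580 to 46230466, plus strand), Apoc3 (46232933 to 46235636, minus strand), Apoa4 (46240696 to 46243459, plus strand) and Apoa5 (46268633 to 46271919, plus strand) share 43.3 kb. Apoc1 (chromosome 7, 19689481 to 19692660, minus strand) and Apoe (19696109 to 19699188, minus strand) share a 27.6 kb cluster with Apoc4 and Apoc2, which are not among the 10. The single genes are Apoa2 (chromosome 1, 171225054 to 171226379, plus strand), Apoh (chromosome 11, 108343354 to 108414396, plus strand), Apob (chromosome 12, 7977648 to 8016835, plus strand) and Apom (chromosome 17, 35128997 to 35132050, minus strand). The build behind the probe design was not given in the sources used here, so these positions describe the genes and not the probes.

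Sequence is shown for Apoa4 and Apoa5, neighbours that fell in both sexes at the highest dose. RefSeq promoter windows on GRCm38.p6 were found for 8 of the 10 genes. Some RefSeq starts differ from the GENCODE starts above: the Apom and Apoh windows and the Apoa1 match lie inside the gene bodies as GENCODE gives them. The first stretches below end before every annotated start of Apoa4 and Apoa5, and the capitals mark the closest match on either strand to DR1, the repeat of 2 copies of AGGTCA with 1 free base between them to which PPAR alpha and Rxra bind. Where several matches were equally close, only the first along the stretch is marked. The Apoa4 stretch also holds an unmarked match that is as close.
Apoa4, chr9:46240594-46240695, plus strand: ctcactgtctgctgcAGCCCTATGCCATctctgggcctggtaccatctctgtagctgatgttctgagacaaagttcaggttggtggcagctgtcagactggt
Apoa5, chr9:46268383-46268607, plus strand: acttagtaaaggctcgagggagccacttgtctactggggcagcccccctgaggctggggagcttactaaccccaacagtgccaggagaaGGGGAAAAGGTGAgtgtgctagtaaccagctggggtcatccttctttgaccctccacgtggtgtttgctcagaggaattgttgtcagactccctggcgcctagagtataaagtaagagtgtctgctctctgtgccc
The closest matches in the 250 bases before the RefSeq start nearest to the GENCODE start, read on the strand of the match, were these. Only the first along the window is given where several were equally close.
Apoa1: AGTTCAAGGATCA
Apoa2: AGGGCAGAGATCA
Apoa4: ATGGCATAGGGCT
Apoa5: GGGGAAAAGGTGA
Apob: GGTCCAAAGGGCA
Apoe: GGGTCACAAGGCA
Apoh: AGGTCATAATTGC
Apom: GGGTCAAGGGTCG
Apoa2, which was not called at any dose, had the closest match, with 2 mismatches, a closeness reached by 3.24% of all 32851 windows. Apoa1, Apoe and Apom had 3 mismatches, and 21.3% of windows held a match as close or closer. Apoa4, Apoa5, Apob and Apoh had 4, and 74.5% of windows held a match as close or closer. TATAAA on either strand was present in the windows of Apoa2, Apoa5 and Apob and in 12.4% of all windows. These matches describe the letters only.

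At 5 mg/kg, 6 of the 10 genes were lower in male mice and 3 in female mice, and none was higher in either sex. Apoa4, Apoa5 and Apoc3 fell in both sexes, and Apoa1, Apoh and Apom passed the test in male mice and did not in female mice. A gene was called lower where the probe with its highest total count had an adjusted p under 0.10 in edgeR's quasi-likelihood test, adjusted by Benjamini-Hochberg over the 18570 probes. Over all probes, 8.49% were called lower and 4.21% higher in male mice, and 2.26% were called lower and 2.26% higher in female mice. The median log2 fold change of the 10 genes was -0.794 in male mice, beside -0.118 over all probes, and -0.205 in female mice, beside -0.00942. In bulk liver, fewer cells that express a gene and less RNA per cell cannot be told apart.

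**Figure D1:**
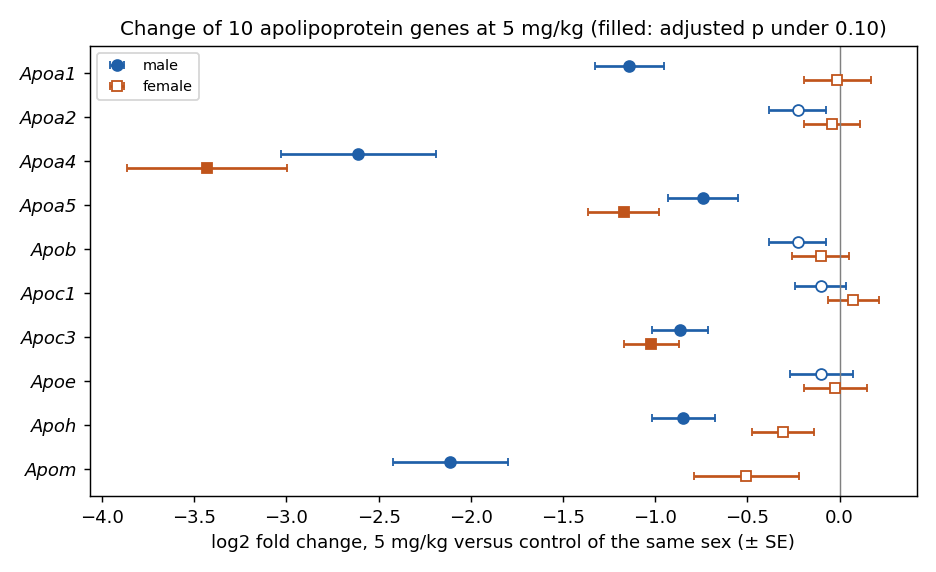
Log2 fold change at 5 mg/kg against the control group of the same sex for the 10 genes, each by its probe with the highest total count. Circles are male and squares female mice, bars are 1 SE from edgeR, and filled symbols passed an adjusted p of 0.10. Apoa4 lies farthest to the left in both sexes, at -2.61 in males and -3.43 in females, and Apoa1 is the gene whose male value of -1.14 faces a female value of -0.01.

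Apoa4 had the largest decrease of the 10. Levels are given as CPM, the probe's counts scaled to library size with TMM factors. In male controls it stood at 242, 176, 201, 154 and 154 CPM, and in males at 5 mg/kg at 7.31, 42.5, 10.5 and 58.7 CPM. Every treated male was below every control. This was a log2 fold change of -2.61 ± 0.42 (SE), or 6.09-fold lower (edgeR adjusted p = 2.19e-05). The males at 5 mg/kg with 7.31 and 10.5 CPM, replicates 1 and 3, were also the libraries of lowest depth in that group, with 31 and 28 counts of Apoa4 among 4147445 and 2101495 counts in all. Without the 4 males of under 5000000 counts the decrease was -1.92 (edgeR adjusted p = 0.00356). In females Apoa4 stood at 594, 481, 506, 591 and 480 CPM in controls and at 38.4, 48.2, 40.6 and 70.2 CPM at 5 mg/kg. The groups were far from overlapping, with a log2 fold change of -3.43 ± 0.433, or 10.7-fold lower (edgeR adjusted p = 3.45e-07).

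Apoc3, the inhibitor of triglyceride clearance, fell by a similar amount in both sexes. Male controls held 2780, 2379, 2822, 2944 and 2219 CPM, and males at 5 mg/kg 1677, 1658, 1073 and 1361 CPM. Female controls held 3945, 3820, 3155, 4067 and 3495 CPM, and females at 5 mg/kg 1839, 1710, 1727 and 2012 CPM. All treated mice were below all controls of their sex. The log2 fold change was -0.87 ± 0.15 in males (edgeR adjusted p = 6.93e-05) and -1.02 ± 0.15 in females (7.14e-06), a decrease to 54.9% and 49.3% of the control means.

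Apoa5, whose product acts against that of Apoc3, was lower in the same mice. Its CPM in male controls were 2028, 2191, 1274, 1782 and 1345, and at 5 mg/kg 988, 1243, 760 and 1134. The highest treated male was only just below the lowest control. Females held 2855, 1668, 1623, 2269 and 2067 CPM in controls and 868, 856, 1015 and 982 CPM at 5 mg/kg, a clear gap. The log2 fold change was -0.74 ± 0.189 in males (edgeR adjusted p = 0.00845) and -1.17 ± 0.192 in females (4.57e-05). In males the call was lost without the 4 libraries of low depth, at -0.579 (edgeR adjusted p = 0.137). Those libraries include replicates 1 and 3 of the males at 5 mg/kg, so this setting also has fewer treated males. The 2 further probes of Apoa5 were also lower in both sexes, by -0.533 and -0.485 in males (edgeR adjusted p = 0.0642 and 0.0971) and by -1.05 and -1.04 in females (0.000175 and 0.000193).

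Apoa1, the core protein of high density lipoproteins, fell in males. Male controls held 29870, 22500, 19610, 25620 and 20590 CPM and males at 5 mg/kg 10060, 12350, 8779 and 11720 CPM, so that no treated male reached the lowest control. The log2 fold change was -1.14 ± 0.186 (edgeR adjusted p = 2.71e-05). In females the groups overlapped throughout, with 17600, 12720, 11310, 15680 and 17710 CPM in controls and 14380, 14770, 17580 and 12740 CPM at 5 mg/kg. The female log2 fold change was -0.013 ± 0.181 (edgeR adjusted p = 1). A second Apoa1 probe, 31604, gave -0.863 ± 0.168 in males (edgeR adjusted p = 0.000402) and 0.304 ± 0.164 in females (0.487).

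Apom, the carrier of sphingosine-1-phosphate, had the second largest decrease in males. Its values were 33.8, 45.1, 27.7, 20.5 and 21.3 CPM in male controls and 8.02, 2.87, 4.88 and 11.6 CPM at 5 mg/kg. The treated males had 13 to 75 counts of this probe, against 150 to 348 in controls, so that each rests on few reads. The log2 fold change was -2.11 ± 0.314, or 4.32-fold lower (edgeR adjusted p = 5.53e-06), and it was -2.1 without the 4 males of low depth. In females Apom stood at 40.8, 44.6, 46.4, 47.7 and 53.4 CPM in controls and at 39.8, 25.1, 21.5 and 44.9 CPM at 5 mg/kg. Of the treated females, 1 lay within the control range and 3 below it, and the female change of -0.506 ± 0.284 did not pass the test (edgeR adjusted p = 0.529).

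Apoh, the phospholipid-binding glycoprotein, was lower in males. Male controls held 3034, 3149, 3267, 3536 and 2484 CPM and males at 5 mg/kg 1421, 2184, 1466 and 1808 CPM, with no overlap. Apoh fell by a log2 fold change of -0.85 ± 0.171 (edgeR adjusted p = 0.00066), and a second probe gave -0.709 ± 0.212 (0.0279). Female values were 2948, 2117, 1833, 1834 and 2233 CPM in controls and 1724, 1759, 1918 and 1691 CPM at 5 mg/kg. These overlapped in 1 mouse, and the female change of -0.307 ± 0.169 did not pass the test (edgeR adjusted p = 0.509).

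**Figure D2:**
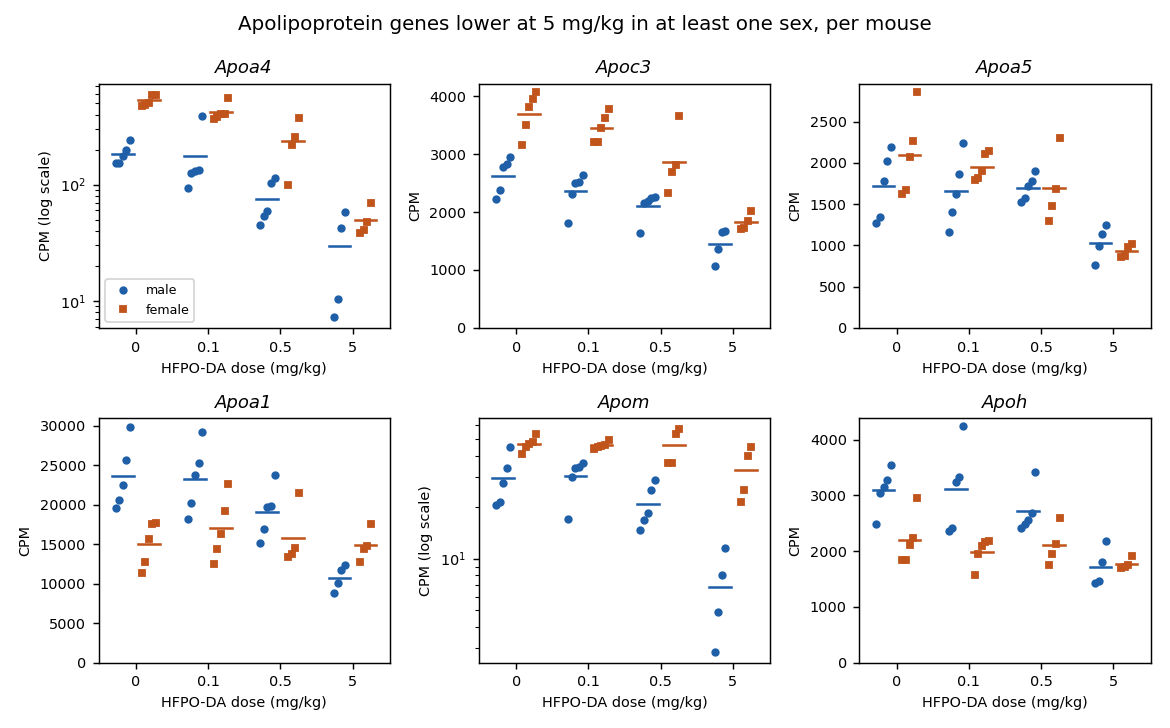
CPM of the 6 genes called lower at 5 mg/kg in at least 1 sex, by dose, for each of the 37 mice. Points are mice, circles male and squares female, bars are group means, and the Apoa4 and Apom axes are logarithmic. The male Apoa4 values at 5 mg/kg of 7.31 to 58.7 CPM lie below all male controls, as do the female values of 38.4 to 70.2 CPM below all female controls.

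The other 4 genes did not pass the test at 5 mg/kg. Apoe, the remnant ligand, gave -0.098 ± 0.17 in males and -0.0227 ± 0.17 in females (edgeR adjusted p = 0.811 and 1). Apoc1, its neighbour, gave -0.103 ± 0.139 and 0.0754 ± 0.138 (0.741 and 1). Apoa2 gave -0.226 ± 0.154 and -0.0412 ± 0.153 (0.403 and 1). For these 3 genes the ranges of control and treated mice overlapped in both sexes: Apoe spanned 30200 to 48200 CPM in male controls and 27300 to 45900 at 5 mg/kg, and Apoc1 8870 to 11400 and 6900 to 11600.

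The probes of Apob, the scaffold of very low density lipoproteins, gave different calls. The one with more counts, 77502, gave -0.228 ± 0.157 in males (edgeR adjusted p = 0.409), from 403 to 489 CPM in controls to 347 to 410 CPM at 5 mg/kg. The other, 68264, gave -0.695 ± 0.165 (edgeR adjusted p = 0.00405). With the counts of both summed, the male change was -0.382 and passed the test (edgeR adjusted p = 0.0896). In females neither passed, at -0.103 ± 0.156 and -0.227 ± 0.163.

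**Figure D3:**
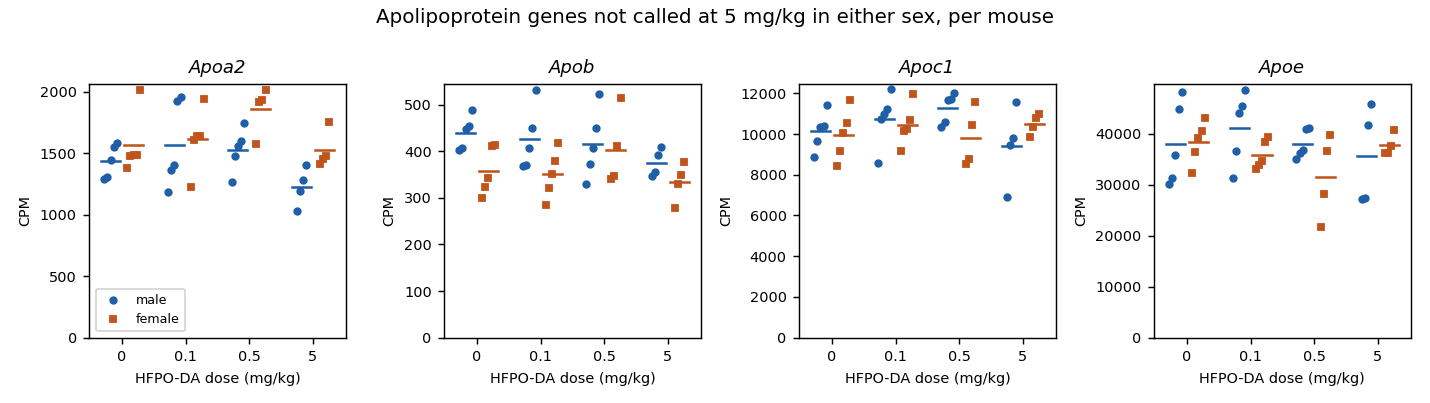
CPM of Apoa2, Apob, Apoc1 and Apoe by dose for each mouse, with circles for males, squares for females and bars for group means. Apoe at 5 mg/kg averaged 93.4% of the male control mean and 98.4% of the female control mean, within the spread of the controls.

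At 5 mg/kg the calls of probes, like those of genes, were all toward lower levels. In males they included Apob probe 68264, although Apob was not called as a gene. In males 11 of the 18 probes were lower and none higher, and in females 5 were lower and none higher. By the probe with the highest total count, the 6 genes called in males, and no others, had every treated male below every control. Of the 18 probes 8 did, beside 4.8% of all probes. They included Apob probe 68264, at 143 to 236 CPM against 265 to 382 CPM in controls. In females the genes so separated were the 3 called ones, and 5 of the 18 probes were, beside 4.31% of all probes. The 4 probes of Apoe, none of which passed the test in either sex, ranged from -0.164 to 0.592 in males, the highest being probe 32107, which had 4547 counts over all mice, compared with 12243928 for the leading probe. Probe efficiency differs, so CPM were compared between mice and not between genes.

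At 0.5 mg/kg none of the 10 genes passed the test in either sex. Over all probes 0.625% were called in males and 0.113% in females, and 2 of the 10 genes had an unadjusted p under 0.05 in each sex, beside 10.3% and 4.33% of all probes. Apoa4 had the largest difference. Its values were 103, 53.6, 59.1, 44.6 and 114 CPM in males, and every one lay below every male control, as 0.695% of all probes did. Their log2 fold change was -1.3 ± 0.367 (edgeR adjusted p = 0.124). In females Apoa4 stood at 219, 99.6, 259 and 378 CPM, again all below the controls, as for 1.49% of probes, with a log2 fold change of -1.15 ± 0.39 (edgeR adjusted p = 0.913). Over the alternative analyses the adjusted p of Apoa4 ranged from 0.00535 to 0.425 in males and from 0.0595 to 1 in females. Apoc3 gave -0.327 ± 0.139 in males and -0.366 ± 0.148 in females (edgeR adjusted p = 0.393 and 1), with overlap between treated and control mice in both sexes. Of the remaining genes, Apom averaged 69.9% of the control mean in males and 98.3% in females, and Apoa5 98.6% and 80.7%, with overlap in each case.

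At 0.1 mg/kg no gene of the 10 was called by edgeR, and none had an unadjusted p under 0.05. Over all probes 0% were called in males and 0% in females; 7.14% and 2.38% had an unadjusted p under 0.05, and DESeq2 called 19 and 3 probes. The log2 fold changes of the 10 genes lay between -0.155 and 0.126 in males and between -0.324 and 0.18 in females. The lowest in both sexes were not the same gene, Apoc3 in males and Apoa4 in females. The comparisons of a sex share their control mice, so the doses are not independent of each other.

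Whether the 5 mg/kg change differed between the sexes was tested as an interaction. Apoa1 and Apom passed, with the male change lower than the female one by -1.13 ± 0.257 (edgeR adjusted p = 0.0267) and -1.61 ± 0.414 (0.0736) on the log2 scale. The second Apoa1 probe gave -1.17 ± 0.234 (edgeR adjusted p = 0.00859). That is 2 of 10 genes, and 0.63% of all probes passed in either direction. Without the 4 males of low depth the adjusted p was 0.153 for Apoa1, at -0.986, and 0.115 for Apom, at -1.59. That setting leaves out replicates 1 and 3 of the males at 5 mg/kg, so fewer treated males remain. Apom also lost the call without any one of 10 single mice. Apoh, called in males, gave -0.541 ± 0.238 and did not pass (edgeR adjusted p = 0.403), so a difference between the sexes was not shown for it. Apoa4, Apoa5 and Apoc3 had positive estimates of 0.819, 0.431 and 0.155, with edgeR adjusted p of 0.661, 0.61 and 0.922.

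The control groups also differed. Apoa1 was higher in male than in female controls by 0.656 ± 0.171 on the log2 scale (edgeR adjusted p = 0.0281), Apoa4 was lower in males by -1.52 ± 0.366 (0.0132) and Apoc3 by -0.492 ± 0.139 (0.0538). For each of the 3, every male control lay to 1 side of every female control. Over all probes, 1.24% were higher in males and 1.36% lower. Apoh gave 0.497 ± 0.159 and did not pass (edgeR adjusted p = 0.116), but passed in 17 of 45 alternatives, most of which left out 1 mouse. It passed with DESeq2 (adjusted p = 0.0113) and with DESeq2's size factors within edgeR (edgeR adjusted p = 0.0581). Either other filter, probes summed, a robust fit and leaving out the males of low depth also gave the call (edgeR adjusted p = 0.0676 to 0.0923). Thinned counts did not. Mean Apoa1 was 23600 CPM in male and 15000 CPM in female controls, and 10700 CPM in males and 14900 CPM in females at 5 mg/kg. The call for Apoc3 was lost without any one of 5 single control mice, with adjusted p up to 0.217, and that for Apoa1 without male control replicate 1 (edgeR adjusted p = 0.103) or female control replicate 2 (0.109).

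A further list held 17 genes, of other apolipoproteins, serum amyloid A proteins and Pon1, an esterase carried on high density lipoproteins. Of these 14 passed the filter. At 5 mg/kg 6 were lower in males (Apof, Apon, Apol9b, Pon1, Saa1 and Saa2) and 5 in females (Apof, Apon, Apol7a, Apol9b and Pon1), with none higher. Among all probes, 8.49% were called lower in males and 2.26% in females. The median log2 fold change of the list was -0.832 in males and -0.0221 in females, beside -0.118 and -0.00942 over all probes. The male median includes Saa1 and Saa2, whose male values rested on 1 mouse, as given below. It was not computed without that mouse, so it is no measure of a difference between the sexes. Apof, which inhibits lipid transfer between particles, fell by -0.954 ± 0.16 in males (edgeR adjusted p = 4.49e-05) and -1.04 ± 0.161 in females (1.79e-05). Apon fell by -1.3 ± 0.219 and -0.74 ± 0.213 (4.44e-05 and 0.0382). For Apoc2 and Apoc4, the neighbours of Apoc1 and Apoe, the male values were 0.232 and -0.057 and the female values 0.292 and 0.233, and none of these passed. The male calls of the acute-phase genes Saa1 and Saa2, at -5.81 ± 1.49 and -5.75 ± 1.65 (edgeR adjusted p = 0.00885 and 0.021), rested on 1 mouse. Male control replicate 2 held 56700 CPM of Saa1, the other male controls 98.2 to 262 CPM, and males at 5 mg/kg 113 to 357 CPM. Without that mouse Saa1 gave 0.202 ± 0.872 and Saa2 1.57 ± 0.995 (edgeR adjusted p = 0.944 and 0.362), and 4 listed genes were lower in males. Saa1 and Saa2 are near-identical copies, so reads may be split between them, and in females they gave 1.69 and 1.87 and did not pass.

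Of 20 genes of lipoprotein assembly and secretion tested, 2 were lower and 3 higher in males at 5 mg/kg, and none passed in females. Among all probes, 8.49% were called lower and 4.21% higher in males, and 2.26% lower and 2.26% higher in females. The median log2 fold change of the list was -0.176 in males and 0.0432 in females, beside -0.118 and -0.00942 over all probes. Mttp, which loads lipid onto Apob, rose by 0.552 ± 0.151 in males (edgeR adjusted p = 0.0151), and gave 0.268 in females (0.536). Of 13 lipases and transfer genes, 2 were lower and 2 higher in each sex. Their median log2 fold change was -0.257 in males and 0.362 in females. Lpl, the lipase on which Apoc3 and Apoa5 act, rose by 3.33 ± 0.638 in males (edgeR adjusted p = 0.000322) and 3.64 ± 0.648 in females (0.000175), and Pltp, the phospholipid transfer protein, by 3.3 ± 0.65 and 2.8 ± 0.628 (0.000478 and 0.00355). Male and female controls averaged only 4.43 and 2.4 CPM of Lpl and 2.66 and 4.11 CPM of Pltp. Mice at 5 mg/kg averaged 44.5 and 30.1 CPM of Lpl and 26.5 and 28.8 CPM of Pltp. The low control levels limit the precision of these fold changes. Lipc, the hepatic lipase, fell by -0.645 ± 0.206 and -0.718 ± 0.206 (0.0423 and 0.0364), and Gpld1 by -2.39 ± 0.281 and -1.3 ± 0.265 (4.12e-08 and 0.00112).

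Among 13 receptor genes tested, 3 were lower and 2 higher in males and 1 was lower and 1 higher in females. Of all probes, 8.49% were called lower and 4.21% higher in males, and 2.26% lower and 2.26% higher in females. The median log2 fold change of the receptor list was -0.418 in males and -0.327 in females, beside -0.118 and -0.00942 over all probes. Cd36, a fatty acid and lipoprotein receptor, rose by 4.53 ± 0.484 and 2.25 ± 0.438 (edgeR adjusted p = 4.75e-09 and 0.000646). Lrp1, a remnant receptor, fell by -0.852 ± 0.17 and -0.634 ± 0.169 (0.00059 and 0.0211), and Scarb1, the receptor for high density lipoproteins, fell in males by -0.991 ± 0.296 (0.0275). Of 26 genes encoding regulators of apolipoprotein genes, 3 were lower in males, Foxo1, Esr1 and Nr1h4, and 1 in females, Rxra, with none higher. Foxo1 averaged 24.7 CPM in male controls and 5.85 CPM in males at 5 mg/kg, and Esr1 8.68 and 2.23 CPM. The male calls of Foxo1 and Esr1 therefore rest on few reads. The median log2 fold change of these 26 genes was -0.508 in males and -0.434 in females. Rxra, the partner of PPAR alpha, gave -0.416 ± 0.16 in males (edgeR adjusted p = 0.1) and -0.547 ± 0.16 in females (0.0437). The study, which used DESeq2, reported Rxra as significantly lower at the highest dose in male and female mice alike. Ppara itself gave -0.584 ± 0.234 and 0.285 ± 0.228 and did not pass (0.116 and 0.824).

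Total counts ranged from 2101495 to 10548222 in males and from 7952605 to 13878254 in females, and 4 males, 2 of them at 5 mg/kg, had under 5000000. The summed hepatocyte markers were at 12400 CPM or more in every library. At 5 mg/kg 6 of 8 hepatocyte markers were lower in males and 5 in females, none was higher, and their summed level fell from 16000 to 21000 CPM in male controls to 12400 to 14700 CPM, and from 21500 to 29500 to 17600 to 19100 CPM in females. Among all probes, 8.49% were called lower in males and 2.26% in females. The part of the hepatocyte marker decrease in the apolipoprotein changes was not tested. None of 10 Kupffer cell and macrophage markers, of 7 stellate cell and fibroblast markers, of 3 bile duct markers, of 4 lymphocyte markers or of 4 red cell markers tested was called in either sex, and 2 of 6 sinusoidal endothelial markers were lower in males. The macrophage sum ranged from 102 to 457 CPM in male controls and from 137 to 404 CPM in males at 5 mg/kg. Macrophages also make Apoe, and a link between this sum and Apoe was not tested. None of 5 adipocyte markers passed the filter on low counts. Together the 18 apolipoprotein probes took 8.81% ± 0.808 (SD, n = 5) of all counts in male controls, 7.86% ± 1.21 (n = 4) in males at 5 mg/kg, 8.9% ± 0.935 (n = 5) in female controls and 8.98% ± 0.572 (n = 4) in females at 5 mg/kg.

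Over the 37 mice, with the mean of each sex removed, the probes whose log2 CPM followed each gene most closely were described by Pearson's r. These mice share dose groups and differ in depth, so the coefficients describe a shared pattern only. Apoa4 was most like F7 (0.916), Cyp1a2 (0.875) and Igfbp4 (0.864). Apoc3 was most like Ugt2a3 (0.923), F7 (0.906) and Dpyd (0.9), and Apoa5 like Rdh7 (0.866), F7 (0.86) and Apoc3 (0.855). Apoc1 and Apoe, neighbours on chromosome 7, had an r of 0.738 between their leading probes and of 0.875 for Apoc1 with Apoe probe 31528. For the leading Apoe probe, Ddrgk1 (0.745) and Spryd4 (0.743) came before Apoc1. Apom was most like Sult1a1 (0.862), Apoh like 1300017J02Rik (0.924) and Apoa1 like Ttc39c (0.817), and Apoa2 and Apob had no coefficient above 0.674. The further probes of a gene followed its leading probe at r of 0.912 for Apoa1, 0.85 and 0.875 for Apoa5, 0.677 for Apoh, 0.673 for Apob, and 0.686, 0.84 and 0.0245 for Apoe, the last for probe 32107.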

How the data were processed

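TempO-Seq libraries of liver sections from 40 mice were made, and the authors removed 3 mice and deposited raw counts per probe for 37, without normalization. Per the labels, reads were processed with bcl2fastq 2.17.1.14 and Bowtie; its version, the settings and the genome build were not given in the sources used here. Counts were analysed in R 4.3.3 with edgeR 4.0.16: probes were kept by filterByExpr over the 8 groups of sex and dose, normalized by TMM and fitted with a mean per group to all 37 mice by the quasi-likelihood method. Each dose was compared with the controls of the same sex, the sexes were compared by an interaction at 5 mg/kg and between controls, and p-values were adjusted by Benjamini-Hochberg over all probes of a comparison, with a threshold of 0.10. Mice are the replicates. SEs are the log2 fold change divided by the square root of its F statistic, and CPM use TMM library sizes. Log2 CPM for correlations used a prior count of 2. Per gene, the probe with the highest total count stood for it. The fit was tested on simulated counts with known changes, as a check of the code and not of the power to call small changes.

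Genes were named by rule: all 10 members, up to 6 genes per pathway list with the smallest adjusted p at 5 mg/kg, of which some are given here with Apoc2 and Apoc4 as neighbours, and the 3 probes most like each member. Pon1 was named outside this rule, as a called gene of its list. Members and lists were chosen with earlier results of these data known. Alternatives were DESeq2's size factors, DESeq2 1.42.0 in place of edgeR, each sex fitted apart, a robust fit, probes summed, no filter, a filter at a mean of 10 counts, an adjusted p under 0.05, and each mouse left out in turn; leaving out the 4 males of under 5000000 counts and thinning to the smallest total were added after the totals were seen. Leaving out each male control for Saa1 and Saa2 was added after their ranges were seen. Depth, from 2101495 to 13878254 counts, limits the precision for Apom and for Apoa4 at 5 mg/kg. Within each group, no pair of libraries agreed within sampling noise; pairs of different groups were not compared. Gene positions are from GENCODE M21 and promoters from RefSeq (GRCm38.p6).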

Additional observations from a re-analysis of the deposited data

Results flagged for a closer look

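In 80 groups of 4 or 5 mice (10 genes by 8 groups), 6 had a mouse far from the others by Dixon's criterion; chance flags about 1 in 20. Apoa1 was 21500 CPM in female 0.5 mg/kg replicate 4, with the others at 13400 to 14500. Apoa2 was 2020 CPM in female control replicate 2, with the others at 1380 to 1490. Apoa4 was 392 CPM in male 0.1 mg/kg replicate 2, with the others at 92.8 to 134, and 558 CPM in female 0.1 mg/kg replicate 4, with the others at 365 to 408. Apoc3 was lowest, at 1630 CPM, in male 0.5 mg/kg replicate 2, one of the libraries of low depth, with the others at 2150 to 2260. Apoh was 3410 CPM in male 0.5 mg/kg replicate 1, with the others at 2410 to 2690.

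The change at 5 mg/kg differed between the sexes for Apoa1, by -1.13 on the log2 scale in males relative to females (edgeR adjusted p = 0.0267), and for Apom, by -1.61 (0.0736). Neither passed without the males of under 5000000 counts (edgeR adjusted p = 0.153 and 0.115), and Apom lost its call in 12 of 45 alternatives. Sex cannot be told apart here from age, number of doses and lactation.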

How the results depend on the processing

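The 6 genes called lower in males at 5 mg/kg kept their direction in all 46 alternatives, and only Apoa5 lost its call, without the males of low depth. The 3 called in females kept direction and call in all 46. At 0.5 mg/kg 1 gene, Apoa4, was called in males with no filter, without the males of low depth and with counts thinned, and 1, Apoa4 again, in females with each sex fitted apart; leaving out a mouse gave 0 to 1 in males. For the interaction 1 gene was called at an adjusted p under 0.05 and with counts thinned, 0 without the males of low depth, and 1 to 2 with a mouse left out. Between controls, where 3 were called, leaving out a mouse gave 1 to 4. Of the 45 alternatives there, most of which left out 1 mouse, Apoh passed in 17, among them DESeq2 and its size factors. Apoc3 lost its call in 6, one of them counts thinned (-0.445, edgeR adjusted p = 0.115). The cause was not tested. The signs of uncalled values near 0 varied at 0.5 and 0.1 mg/kg: Apoe in males at 0.5 mg/kg turned in 29 of 46 alternatives, Apoa5 in 10, and at 0.1 mg/kg Apoa1 in 8 and Apoa4 in 7, among others. At 5 mg/kg and between controls, these uncalled values turned sign. Without the males of low depth, Apoc1 and Apoe in males at 5 mg/kg were 0.0352 and 0.161, the Apoe interaction 0.201 and Apoe between controls 0.00764. With DESeq2's size factors and with DESeq2, the Apoe interaction was 0.00795 and 0.00797 and Apoe between controls 0.0161 and 0.0161, and the latter was 0.0254 with a mean of at least 10 counts and 0.0305 with counts thinned. Apoa1 in females at 5 mg/kg was 0.0231 with probes summed. With a mouse left out, the ranges in males at 5 mg/kg were -0.244 to 0.0192 for Apoc1 and -0.273 to 0.00846 for Apoe, and in females -0.114 to 0.0535 for Apoa1, -0.116 to 0.0655 for Apoa2 and -0.0907 to 0.00692 for Apoe. They were -0.232 to 0.0318 for the Apoe interaction, and between controls -0.00475 to 0.0866 for Apoc1 and -0.0849 to 0.0725 for Apoe. Saa1 and Saa2 in males at 5 mg/kg ranged from -6.15 to 0.202 and from -6.08 to 1.57 with a male control left out. Counts of Apom and of male Apoa4 at 5 mg/kg limit their precision. No paired analysis was possible because the labels give no replicate numbers shared between groups.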
